A study of Mus musculus with 4 samples.

Results

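Droplet single-cell RNA sequencing was applied to cells of the testis from outbred ICR mice. Transcripts were counted by unique molecular identifiers (UMIs), tags that keep amplified copies of a molecule from being counted again. All mice were males of 3 weeks at the start, and each group was 1 library made from 6 pooled mice: A0 (water as vehicle), A10 (AOS at 10 mg/kg), B0 (a single injection of busulfan at 40 mg/kg, then vehicle) and BA10 (the same busulfan injection, then AOS at 10 mg/kg). Busulfan is an alkylating drug that crosslinks DNA and is toxic to dividing germ cells, and AOS are alginate oligosaccharides, short sugar chains made from brown seaweed alginate. The cells described here were the B0 cells with 9013 or more UMIs and fewer than 5 Insl3 UMIs per 10000, which left 416 of 4659 B0 cells (8.93%) of 27060 cells in all.

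Depth and Insl3, the insulin-like hormone made by Leydig cells, are the measured values these cells were chosen by, so neither is a finding. The limit of 9013 is the lowest UMI count of any BA10 cell, where that of B0 was 2985. How cells were called in each library was not settled from the sources used here, since the methods give a fixed number of cells that the libraries do not hold, and the limit and the share of 8.93% depend on it. The members held 9018 to 55657 UMIs, with a median of 11840 UMIs and 3606 genes. The closest Insl3-low cells outside the limit had 8984, 8985 and 9012 UMIs, and the closest inside had 9018, 9035 and 9045. On the Insl3 side, the nearest members had 4.39, 4.89 and 4.99 UMIs per 10000, and the nearest deep cells outside had 5.02, 5.04 and 5.23. The other 4243 B0 cells were 3379 shallow cells with high Insl3, 832 shallow cells with low Insl3 and 32 deep cells with high Insl3, and their median was 4086 UMIs. Cells at the same limits numbered 7898 in A0, 6686 in A10 and 3641 in BA10. B0 shared 56 cell barcodes with A0, 56 with A10 and 31 with BA10. Because a group was 1 library, no test was possible, intervals are 95% and cover counting error only, and drug, pool and library cannot be told apart.

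**Figure D1:**
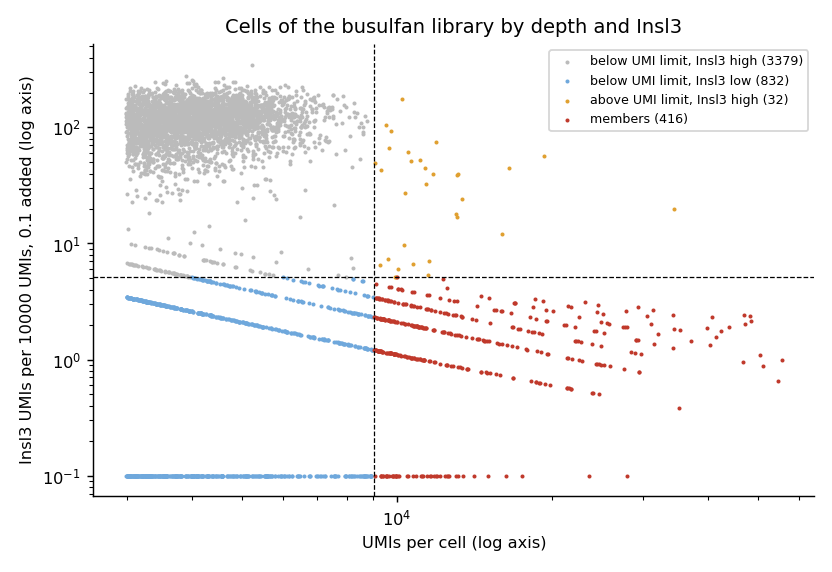
Each point is 1 of the 4659 B0 cells, with its UMIs on the horizontal log axis and its Insl3 UMIs per 10000 (0.1 added) on the vertical log axis. Dashed lines mark the limits of 9013 UMIs and 5 Insl3 UMIs per 10000. The 416 members lie at the lower right, and the 3379 shallow Insl3-high cells form the large group at the upper left.

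Spermatogenesis runs from spermatogonia through meiotic spermatocytes to haploid round and elongating spermatids. In pachytene, the long middle stage of meiotic prophase, the X and Y chromosomes are silenced, and autosomal retrogenes copied from X-linked genes take over some of their functions. Spermatids resume part of X transcription and later pack their DNA with transition proteins and protamines. Busulfan is used in mice to deplete germ cells.

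The genes with the largest excess in the members over both other B0 cells and A0 cells were mostly members of multicopy families. Some of them have promoters that are nearly alike, which is shown here for a pair of Speer genes, whose products are spermatogenesis-associated glutamate-rich proteins. From RefSeq on GRCm38.p6, the region from 250 bases before to 50 bases after the start of Speer4c (chr5:15714222-15714521, minus strand) and of Speer4e (chr5:14938426-14938725, minus strand) differed at 4 of 300 positions, given in capitals.
Speer4c: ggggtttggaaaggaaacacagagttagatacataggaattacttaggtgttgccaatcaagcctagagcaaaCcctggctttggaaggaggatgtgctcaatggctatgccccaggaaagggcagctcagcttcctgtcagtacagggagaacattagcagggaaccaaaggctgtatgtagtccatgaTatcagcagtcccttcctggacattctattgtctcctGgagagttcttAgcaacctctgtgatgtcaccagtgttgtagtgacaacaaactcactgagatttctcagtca
Speer4e: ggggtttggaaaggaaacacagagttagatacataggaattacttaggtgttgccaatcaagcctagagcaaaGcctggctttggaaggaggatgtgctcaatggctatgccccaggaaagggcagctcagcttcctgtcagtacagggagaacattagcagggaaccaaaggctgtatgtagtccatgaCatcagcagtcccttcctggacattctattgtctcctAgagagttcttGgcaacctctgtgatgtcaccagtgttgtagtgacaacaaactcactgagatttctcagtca

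In local alignments with gaps, the promoters of Gm21190, Speer4d, Gm10354, Gm21149, Gm7347 and Gm21663 were the same as that of Speer4c at 96.9% to 99.1% of 235 to 295 aligned bases. The closer of the 2 Speer1 promoters was the same at 84.2% of 146 aligned bases. A second pair lies on chromosome 14. The promoters of Gm3476 (chr14:6125778-6126077, minus strand) and 4930555G01Rik (chr14:5050379-5050678, plus strand) were the same at 286 of 297 aligned bases (96.3%), with 1 base of gap. The other leading genes of that chromosome, Gm2897 and Gm10406, aligned with Gm3476 over no more than 14 bases. Capitals mark the letters GGCAGTT or their reverse complement, the core bound by MYB factors, whose member A-MYB drives many pachytene genes.
Gm3476: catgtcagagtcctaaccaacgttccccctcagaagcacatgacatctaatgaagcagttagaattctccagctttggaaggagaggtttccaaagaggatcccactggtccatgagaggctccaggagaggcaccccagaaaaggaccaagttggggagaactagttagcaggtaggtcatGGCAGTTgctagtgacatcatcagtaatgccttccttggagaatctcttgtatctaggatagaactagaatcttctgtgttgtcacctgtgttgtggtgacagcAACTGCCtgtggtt
4930555G01Rik: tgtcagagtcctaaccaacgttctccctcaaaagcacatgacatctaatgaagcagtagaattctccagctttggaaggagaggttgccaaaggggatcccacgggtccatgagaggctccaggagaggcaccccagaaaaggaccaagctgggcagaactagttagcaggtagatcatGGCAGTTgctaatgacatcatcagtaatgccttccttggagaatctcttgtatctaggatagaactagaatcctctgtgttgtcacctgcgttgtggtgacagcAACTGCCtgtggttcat
Of the 25 leading genes, 23 had a promoter in the RefSeq table, and GGCAGTT stood on either strand in 5 of their 31 promoters (Gm3476, 4930555G01Rik, Speer1, Ghrl and Vstm2a), against 4.12% of all 32851 promoters. TGACGTCA, the element bound by CREB and CREM, stood in 0 of the 31 and in 1.79% of all. Among the 10027 promoters of genes found in at least 5% of members, the shares were 4.03% for GGCAGTT and 3.41% for TGACGTCA. These matches describe letters only.

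The members were germ cells of the spermatocyte and spermatid stages. The pachytene list (Piwil1, Pou5f2, Mybl1, Hspa2, Ldhc, Clgn and Ybx2) summed to 9724 UMIs per 1000000 (CPM) in the members, 1210 CPM in other B0 cells and 10250 CPM in all A0 cells. Ldhc, the lactate dehydrogenase of germ cells, was found in 100% of members at 6783 CPM (95% interval 6719 to 6846), against 742 CPM in other B0 cells and 7797 CPM in A0. Ddx4, the germ cell RNA helicase VASA, was in 96.4% of members. The member with the lowest pachytene list still had 46.0 such UMIs per 10000. Genes of the 2 spermatogonial lists were uneven. Of the 8 undifferentiated spermatogonia genes, Ret was at 0 UMIs, Sall4 at 1, Lin28a at 3, Zbtb16 at 6, Gfra1 at 7 and Etv5 at 18 over all members, while Nanos3 had 59 UMIs and Id4 had 327. The list summed to 65.1 CPM in the members, 113 CPM in other B0 cells and 41.2 CPM in A0. The differentiating spermatogonia list summed to 890, 314 and 924 CPM, of which Dmrtb1, a regulator of the entry into meiosis, made up 872, 104 and 912 CPM. The levels of Ldhc and the pachytene list thus bear out the name germ cells. The share of members with Ddx4 is not used for this, since some somatic genes were also found in most members, as given below.

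**Figure D2:**
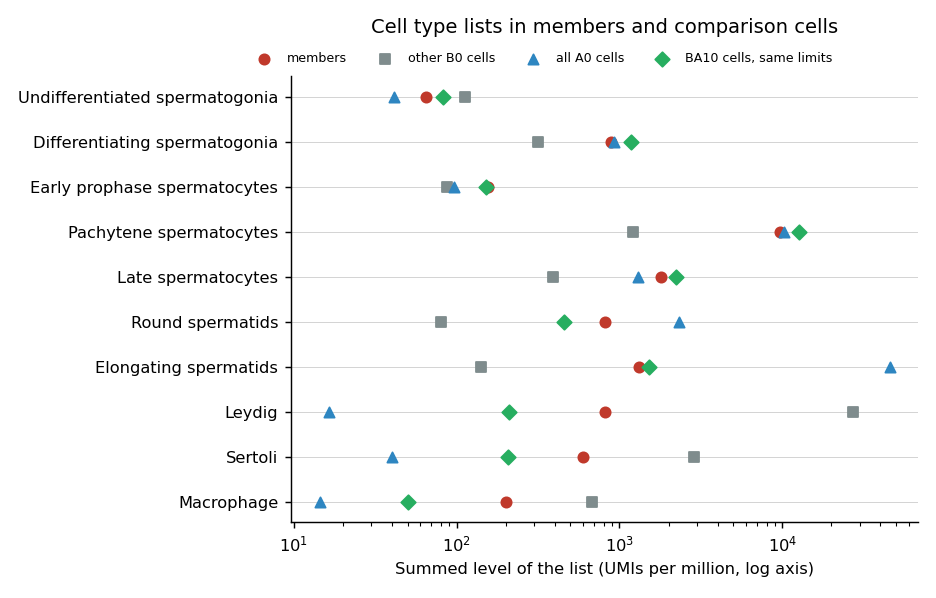
Summed level of each cell type list, in CPM on a log axis, for the members, the other B0 cells, all A0 cells and BA10 cells at the same limits. The members lie near A0 for the pachytene list (9724 and 10250 CPM) and far below it for the elongating spermatid list (1315 and 45760 CPM).

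Against the other B0 cells, 11111 genes had a UMI in at least 5% of cells of either set, and 30.8% of them were at least 2-fold higher in the members and 35.7% at least 2-fold lower (log2 ratio of 1 or more either way, 1 CPM added). Germ cell lists from pachytene on were mostly higher, and earlier ones were mixed. All 7 pachytene genes were past the fold (median log2 ratio 2.40), as were 7 of 8 late spermatocyte genes (2.43), all 6 round spermatid genes (3.11) and all 8 tested elongating spermatid genes (3.12), where the median of all tested genes was -0.20. Of 4 tested undifferentiated spermatogonia genes, 2 were higher and 2 lower (-1.09), of 4 differentiating spermatogonia genes 1 was higher and 3 lower (-2.31), and 1 of 3 early prophase and 2 of 8 meiotic recombination genes were higher. The 10 largest excesses were Fam221b, 4933417A18Rik, Gm3417, Ccdc54, Cylc2, Galntl5, Smcp, Hmgb4, 4930596D02Rik and LOC102636907. Smcp, a protein of the sperm mitochondrial capsule, measured 417 CPM in the members and 29.2 CPM in other B0 cells. Cylc2, a cytoskeletal protein of the sperm head, measured 188 and 12.6 CPM.

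The lists of the main somatic types were lower. All 8 Leydig genes lay past the fold downwards (median log2 ratio -4.93). One of them, Insl3, was fixed by the choice of cells, the other 7 lay between -4.46 and -5.27, and a low level of genes made by the same cells as Insl3 follows in part from that choice. Lower too were 6 of 7 tested Sertoli genes (-1.71) and all 7 tested macrophage genes (-1.69). Some lists of rarer types held a gene that was higher: Actg2, a smooth muscle actin, measured 54.6 CPM in the members, 4.67 CPM in other B0 cells and 314 CPM in A0, and Cd3d, a subunit of the T cell receptor complex, measured 11.6, 2.81 and 32.8 CPM. These were the genes past the fold of the 2 tested peritubular myoid genes and the 1 tested lymphocyte gene, and Acta2, the other tested myoid gene, had a log2 ratio of -0.29. Within the members, the myoid list was highest in clusters 2 and 6 described further on, at 306 and 129 CPM. The lymphocyte list was highest in cluster 2, at 31.4 CPM. Those 2 clusters also had the highest round spermatid lists. Besides Insl3, the lowest ratios belonged to Prlr, Snhg11, Rarres1, Sult1e1, Hsd17b3, Cyp17a1, Ass1 and Lcn2 among others. Cyp17a1, an enzyme of androgen synthesis, measured 136 CPM in the members and 5306 CPM in other B0 cells. Most of the other B0 cells were Insl3-high, so the contrast sets germ cells against a library dominated by Leydig transcripts. Against the Insl3-low B0 cells below the UMI limit, 16.3% of tested genes were higher in the members and 36.9% lower. In those shallow cells the levels were 3909 CPM for the pachytene list, 222 CPM for the round spermatid list and 4144 CPM for the Sertoli list, where the members had 9724, 819 and 596 CPM.

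Somatic transcripts were nonetheless present in the members at low levels. Insl3 was found in 88.5% of members at a median of 1.42 UMIs per 10000, and in 0.962% of A0 cells at the same limits. The Leydig list summed to 811 CPM in the members, 27173 CPM in other B0 cells, 16.5 CPM in A0 and 209 CPM in BA10 at the same limits. It ranged from 0.84 to 19.6 UMIs per 10000 over the members, and no member was at 0. In the 9 clusters described further on, it kept between 560 and 971 CPM. Per Cyp17a1 UMI, the members had 1.11 Insl3 UMIs and other B0 cells 1.67, but Insl3 was part of the choice of cells. Ratios not used in the choice were 0.231 and 0.190 for Hsd3b1, 0.195 and 0.163 for Hsd3b6, 0.717 and 0.410 for Cyp11a1, and 2.41 and 1.48 for Fabp3. The Sertoli list summed to 596 CPM and the macrophage list to 201 CPM in the members, and Clu, a secreted glycoprotein abundant in Sertoli cells, was in 94.2% of them. The defining Sertoli gene Fshr had 3 UMIs. Whether free RNA accounts for these values was not tested, and each gene below that is also a somatic gene is to be read beside them.

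Against all 8941 A0 cells, 10640 genes passed the filter, of which 19.8% were higher and 10.8% lower in the members. The median of all tested genes was 0.34, and after centring on it 1370 genes were higher and 1541 lower in place of 2107 and 1153, so list medians are read against 0.34. The 2107 higher genes became 620 with 10 CPM added and 832 with a filter at 20% of cells, so the share of 19.8% belongs to 1 CPM added and the filter at 5% of cells. Of the meiotic lists, several lay near that value: 0.27 for pachytene genes, with 1 of 7 past the fold, 0.49 for late spermatocyte genes, with 0 of 8, 0.53 for the piRNA pathway, with 1 of 15, and 0.43 for meiotic recombination, with 1 of 8 lower. Synaptonemal complex genes had a median of 0.65, with 2 of 9 higher and 1 lower, and meiotic cohesins -0.07, with 1 of 6 higher and 1 lower. Piwil1, the PIWI protein of pachytene piRNAs, was the pachytene gene past the fold, at 224 CPM against 92.1 CPM. Haploid lists were lower. Of 6 round spermatid genes, 4 were past the fold (median -1.29), and of 9 elongating spermatid genes, 8 were (-4.69).

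Genes of the packing of sperm DNA were among the lowest. Prm1, a protamine, measured 68.3 CPM in the members and 12309 CPM in A0, which is 180-fold. Prm2, the other protamine, measured 43.0 against 15503 CPM. Tnp2 and Tnp1, the transition proteins, measured 47.5 against 7507 CPM and 182 against 4712 CPM. Tnp1 was found in 30.3% of members, Prm1 in 8.89% and Prm2 in 15.9%, whereas 100% of A0 cells at the same limits had a Prm1 UMI. That A0 share was not split by stage, and whether all of those cells express Prm1 or some carry it as free RNA was not tested. Cstl1, 1700016C15Rik and 1700080E11Rik had 0 UMIs in the members, which allows up to 0.464 CPM (3 UMIs over the group), against 218, 185 and 163 CPM in A0. They were thus at least 469-fold, 399-fold and 351-fold lower. The round spermatid genes lay between -0.85, for Acrv1, an acrosome protein (85.5 against 155 CPM), and -2.20, for the kinase gene Tssk2 (203 against 936 CPM). The elongating spermatid genes lay between -0.77, for Odf1, a tail fibre protein (67.6 against 116 CPM), and -8.46, for Prm2. Tubule pieces were washed to remove spermatozoa in every group. A0 holds its own mixture of stages, and that mixture and the drug cannot be told apart in these ratios.

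The 10 largest excesses over A0 were Apoc1, Insl3, Lcn2, Wfdc17, Akr1cl, Dcn, Gstm1, Agt, Scd2 and Ptgds. Insl3 aside, which the choice of cells held low, all were lower in the members than in other B0 cells: the log2 ratio was -0.68 for Dcn, a stromal proteoglycan, -1.96 for Wfdc17, and between -4.24 and -5.21 for the others. Apoc1 measured 246 CPM in the members, 1.44 CPM in A0 and 5537 CPM in other B0 cells. These genes moved with the Leydig, Sertoli and macrophage lists, of which 8 of 8, 6 of 6 and 7 of 7 tested genes were higher than in A0. Of all tested genes, 19.8% were higher than in A0. The part of somatic RNA in these genes was not tested.

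Genes higher in the members than in both sets were few: 190 of 10171 genes tested in both comparisons (1.87%) were at least 2-fold higher than other B0 cells and at least 2-fold higher than A0. Ranked by the smaller of their log2 ratios, the first was Tcte3, which encodes a dynein light chain of the Tctex2 type and lies on chromosome 17 (mm10 chr17:15027152-15041488). Tcte3 measured 459 CPM (442 to 475) in the members, 54.0 CPM in other B0 cells and 76.8 CPM in A0. Next was Gm3476 (chr14:6105321-6125807), at 57.4 CPM (51.7 to 63.5) against 7.37 and 9.07 CPM. Speer4c (chr5:15709501-15714271) held rank 4, at 45.4 CPM (40.4 to 51.0) against 8.22 and 8.02 CPM. These values are what ranked the genes and are given as a description. Other sets of B0 cells also had more of these genes than A0. The 32 deep cells with high Insl3 had 302 CPM of Tcte3, 33.2 CPM of Gm3476 and 33.2 CPM of Speer4c, and the 832 shallow cells with low Insl3 had 185, 26.5 and 31.3 CPM, beside pachytene lists of 6542 and 3909 CPM. Over those shallow cells the log2 ratios of the members were 1.31, 1.09 and 0.52, where the median of the pachytene list was 0.99.

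**Figure D3:**
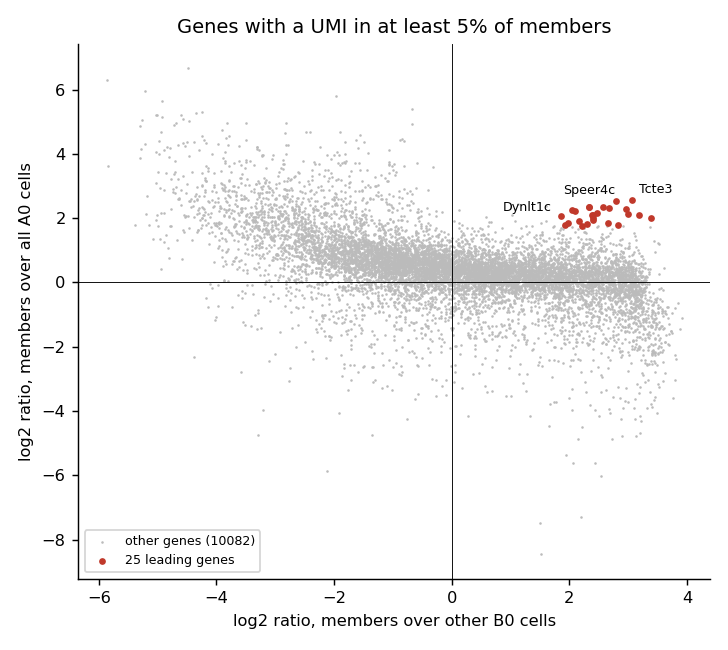
Each point is a gene with a UMI in at least 5% of members, placed by its log2 ratio over other B0 cells (horizontal) and over all A0 cells (vertical). The 25 leading genes, in red, lie at the upper right; Tcte3 lies at 3.06 and 2.56. Genes at the upper left are higher than A0 but lower than other B0 cells, as Leydig genes are.

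The 25 leading genes held 4 Speer genes (Speer1, Speer4c, Speer4d and Speer4e), and 10 of the 25 lay on chromosome 5, which carries 6.68% of the genes found in at least 5% of members. A further 4 lay on chromosome 14, which carries 3.48% of those genes, and 4 on chromosome 17, which carries 4.93%. For those on chromosome 17, the lower coordinates on mm10 were 6601671 for Dynlt1c, 7945614 for Rsph3a, 15027152 for Tcte3 and 85684277 for Six2. Dynlt1c, Rsph3a and Tcte3 thus lay nearer to one another than to Six2, and whether their position bears on their levels was not tested. Among those of known product, Dynlt1c, a Tctex1-type dynein light chain, measured 361 CPM (346 to 376) against 83.6 CPM in other B0 cells and 76.0 CPM in A0. Rsph3a, a radial spoke protein of the sperm tail, measured 131 CPM against 19.8 and 35.9 CPM. Ghrl, the ghrelin precursor, measured 425 CPM against 52.1 and 97.1 CPM, and Map4k1, a kinase upstream of the JNK pathway, 266 CPM against 36.7 and 75.6 CPM. Six2, a homeobox factor, measured 38.6 CPM against 2.81 and 8.84 CPM. The lowest of the 25 was LOC105245675, with 33 UMIs in 28 members.

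Many of these genes share much of their 3′ end, the part that this assay reads, with other genes. For each gene, the last 300 bases of its GENCODE M21 transcripts were cut into stretches of 31 bases. At least 50% of the stretches also occurred in another gene for 18 of the 23 leading genes with a transcript, and the median share was 88.5%, whereas 12 stage genes such as Ldhc and Prm1 shared 0%. For Tcte3 the share was 99.3%, with Gm3448 and Gm3417. The counting could therefore split or drop such UMIs, and the levels of single copies are uncertain. Ghrl (0.43%), Vstm2a (0%) and Map4k1 (0%) were not affected.

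Sums over copies were made for 5 families (Tcte3, Dynlt1, Speer, Rsph3 and Ccl27), and in these the direction held over both sets. The Speer sum took only genes whose symbol starts with Speer. It left out genes of other names that share their 3′ ends, such as Gm21149 for Speer4c and Gm8926 for Speer1, so it does not settle the level of that family. The Dynlt1, Rsph3 and Ccl27 sums likewise held only genes of those names. The families of Gm3476, Gm21119 and Gm5861 were not summed. Tcte3 with Gm3417 and Gm3448 summed to 568 CPM (550 to 587) in the members, 60.6 CPM in other B0 cells, 245 CPM in A0 and 104 CPM in BA10 at the same limits. Gm3417 alone measured 107 CPM in the members and 168 CPM in A0, so the log2 ratio over A0 was 2.56 for Tcte3 and 1.21 for the sum, where over other B0 cells it was 3.06 and 3.21. Rsph3a and Rsph3b summed to 139 CPM in the members, 22.4 CPM in other B0 cells and 41.5 CPM in A0, with log2 ratios of 2.58 and 1.72 where Rsph3a alone had 2.66 and 1.84. The 4 Dynlt1 genes summed to 1882 CPM in the members, 674 CPM in A0 and 1186 CPM in BA10. All 9 Speer genes were past the fold upwards over other B0 cells and 6 over A0, where 30.8% and 19.8% of all tested genes were higher. Of the 9, Speer1, Speer4c, Speer4d and Speer4e are leading genes, which were ranked on these same ratios. The 9 genes summed to 715 CPM (695 to 736) in the members, 105 CPM in other B0 cells, 303 CPM in A0 and 589 CPM in BA10. Speer2 and Speer3 differed from A0 by 0.44 and 0.25 on the log2 scale.

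Cells of the other libraries at the same limits gave a comparison that the ranking did not use for A10 and BA10, although the members' own values enter both. Of genes tested over BA10, 17.1% were higher in the members and 1.01% lower, over A10 18% and 9.67%, and over A0 at the same limits 19.5% and 11%. Among the 25 leading genes 19 were higher over BA10 (median log2 ratio 1.49) and 23 over A10 (1.91), and their choice for a high level in the members favours this. Not past the fold over BA10 were Gm5861, Speer1, Ghrl, Ccl27b, Rsph3a and Map4k1, and over A10 Gm5861 and Speer1. Ghrl and Map4k1 are among the genes not affected by shared 3′ ends. Tcte3 measured 85.2 CPM in BA10 and 92.8 CPM in A10, Gm3476 measured 13.0 and 11.4 CPM, and Speer4c measured 8.01 and 8.66 CPM. The intervals of the members did not reach these values. Speer1 measured 155 CPM in the members, 31.6 CPM in A0 at the same limits, 116 CPM in A10 and 214 CPM in BA10. The members thus did not have its highest level, and between the libraries without busulfan its log2 ratio of A10 over A0 was 1.88. Gm5861 measured 52.7 CPM in the members, 26.4 CPM in A10 and 45.0 CPM in BA10.

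**Figure D4:**
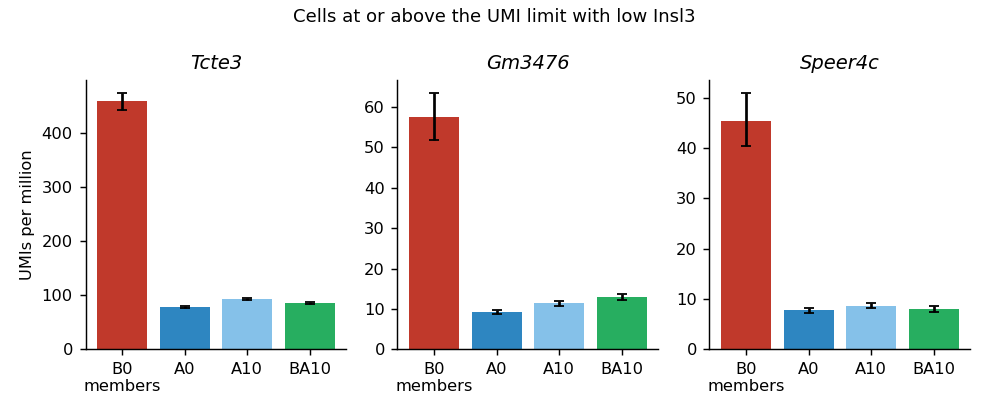
Level of Tcte3, Gm3476 and Speer4c in CPM in the B0 members and in A0, A10 and BA10 cells at or over 9013 UMIs with low Insl3; bars are pooled levels and error bars 95% Poisson intervals of the UMI sum. In each panel the members stand above the other libraries, for Tcte3 at 459 CPM against 77.9, 92.8 and 85.2 CPM.

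The members also had the highest shares of cells with these genes when depth was equalised. With every cell thinned to 9013 UMIs, Tcte3 was found in 96.6% of members (94.4 to 98.1), 47.0% of A0 cells, 52.1% of A10 cells and 53.4% of BA10 cells. Gm3476 was found in 31.7%, 8.77%, 9.98% and 12.6%, and Speer4c in 30.5%, 7.38%, 7.54% and 8.93%. Before thinning, Tcte3 was found in 99.0% of members and 78.0% of BA10 cells. The genes were chosen for a high level in these members, which favours high shares. Tcte3 is counted here as a single copy. Gm3417, which shares its 3′ end, measured 107 CPM in the members and 171 CPM in A0 at the same limits. Tcte3, Gm3417 and Gm3448 together had 568 CPM in the members and 249 CPM in those A0 cells.

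Cells were then compared within windows set on the late spermatocyte and round spermatid lists, which were chosen after the data were seen and do not match stage fully. A late spermatocyte window took cells with at least 10 late spermatocyte UMIs and under 5 round spermatid UMIs per 10000, and held 217 members, 1741 A0 cells and 2502 BA10 cells. Tcte3 there measured 474 CPM (452 to 498) in the members, 100 CPM in A0 and 85.5 CPM in BA10. Speer4c measured 44.1, 6.38 and 5.11 CPM, and Gm3476 24.3, 3.85 and 4.38 CPM. A round spermatid window took cells with at least 10 round spermatid UMIs per 10000 and held 141 members, 5554 A0 cells and 770 BA10 cells. Tcte3 measured 435 CPM (407 to 465), 67.1 CPM and 79.7 CPM there, Gm3476 87.0, 10.6 and 42.3 CPM, and Speer4c 28.8, 6.71 and 12.9 CPM. Within both windows each of these genes was higher in the members, with counting intervals that did not overlap. The genes were chosen for a high level in these same members, over A0 among others, which favours this. Those intervals do not cover differences between pools or libraries. Tcte3 is again the single copy, and its copies were not summed within the windows. The median X-linked share of UMIs in the late window was 0.387% in the members, 0.110% in A0 and 0.140% in BA10, and in the round window 1.28%, 1.31% and 0.939%. The round window set no limit on elongating spermatid genes. Median depth in the late window was 12087 UMIs for members and 22034 for BA10, and whether stage, depth or free RNA bears on these levels was not tested.

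X-linked genes gave a median of 0.642% of a member's UMIs (quartiles 0.370% and 1.18%), against 2.79% in other B0 cells, 0.984% in A0 cells and 0.226% in BA10 cells at the same limits. Autosomal retrogenes derived from the X were past the fold over other B0 cells in 6 of 6 cases (median 2.73), where 30.8% of all tested genes were higher and 35.7% lower. Pgk2, the retrogene of phosphoglycerate kinase, measured 219 CPM and its X-linked parent Pgk1 10.0 CPM in the members, against 25.6 and 105 CPM in other B0 cells. Of 5 tested X-linked parents, 4 were past the fold downwards (-3.16), Utp14a being the exception at 0.93. Over A0 the retrogenes had a median of 0.12, with 1 of 6 past the fold downwards, Pgk2. Rpl10, an X-linked ribosomal gene, measured 116 CPM in the members, 15.3 CPM in A0 and 1634 CPM in other B0 cells, and so followed the somatic lists.

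The members fell into 9 clusters of 18 to 81 cells, which are described by their numbers and leading genes, without a test, since the same genes formed them. Clusters 5, 3 and 9 had the lowest X-linked shares, with medians of 0.214%, 0.321% and 0.358%, and round spermatid lists of 7.61, 14.1 and 41.7 CPM. Cluster 9 (18 cells) was led by LOC666331, Gml2, Maz and Wfdc12, with the recombination gene Meiob further down its leading genes. It had 1761 CPM of Piwil1, 2516 CPM of Sycp1, a synaptonemal complex protein, and 653 CPM of the early prophase list, with 4.63 CPM of Ccna1. Cluster 5 (38 cells) was the deepest, at a median of 23718 UMIs, with Piwil1 at 830 CPM. Cluster 3 (65 cells) had the highest late spermatocyte list, 2583 CPM, and haemoglobin Hba-a1 among its leading genes; Hba-a1 was in 69.2% of its cells and in 65.4% of all members. Clusters 1, 7 and 4 (81, 29 and 62 cells) had X-linked shares of 0.507%, 0.626% and 0.818% and round spermatid lists of 199, 584 and 1032 CPM. Cluster 1 had Speer4c and Speer4e among its leading genes, and cluster 4 was led by X-linked Ssxb genes.

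At the other end stood clusters 6 (36 cells) and 2 (67 cells), with X-linked shares of 1.21% and 1.51% and round spermatid lists of 2029 and 2746 CPM. Cluster 2 was led by Prm1, Slc10a2, Banf2 and H1fnt. In it, 100% of cells had Tnp1, Prm3 and Smcp, 70.1% had Tnp2, 49.3% had Prm2 and 28.4% had Prm1. Prm1 reached 456 CPM in cluster 2, against 12309 CPM in A0 as a whole. Cluster 8 (20 cells) was led by Cxcl14, Nav1, Dcn and Nrk, carried 1112 CPM of the macrophage list against 83.4 to 255 CPM in the others, and had the late spermatocyte list at 2113 CPM. Its Leydig list was 918 CPM, within the range of the others. Doublets were kept and their part in cluster 8 was not tested.

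**Figure D5:**
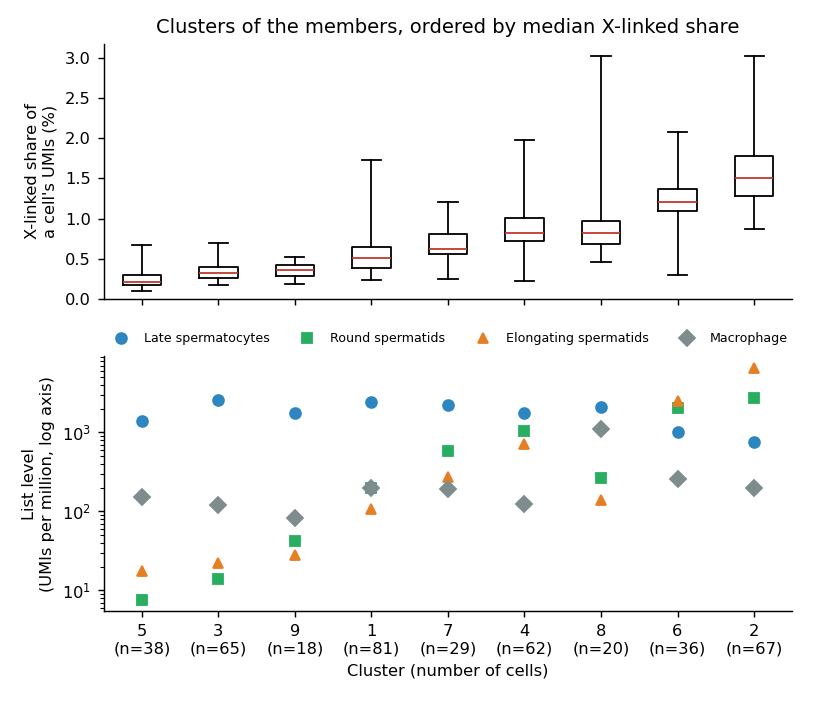
Above, the X-linked share of each member's UMIs by cluster (box, quartiles; line, median; whiskers, full range), with clusters ordered by the median; below, the summed level of 4 lists in each cluster in CPM on a log axis. The round and elongating spermatid lists are highest in clusters 6 and 2, and cluster 8 has the highest macrophage list, 1112 CPM.

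Leading genes differed in how they were spread over the clusters. Tcte3 was broad, at 272 to 568 CPM in every cluster and in 94.4% or more of the cells of each. Gm3476 was narrow: 158 CPM in cluster 4, 124 CPM in cluster 7 and 89.1 CPM in cluster 6, but 1.09 CPM in cluster 5 and 0 UMIs in cluster 9. Speer4c reached 119 CPM in cluster 1 and 93.9 CPM in cluster 7, with 0 UMIs in clusters 5 and 9. Speer1 was highest in cluster 5, at 261 CPM, where Speer4c was not detected. Cells with the same family of genes thus did not share 1 pattern. Per cell, the members had a median of 4.4 Tcte3 UMIs per 10000 (quartiles 2.91 and 6.54, highest 12.9) and a median of 0 for Gm3476 and Speer4c.

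Genes of the response to DNA damage were followed because busulfan crosslinks DNA. The p53 list had 7 of 8 tested genes lower and 1 higher than in other B0 cells, where 35.7% of all tested genes were lower and 30.8% higher. Mdm2, the ligase that degrades p53, was the higher one, at 140 CPM against 57.1 CPM and 153 CPM in A0. Cdkn1a, the p21 cell cycle inhibitor, measured 10.2 CPM in the members, 184 CPM in other B0 cells and 6.13 CPM in A0. Over A0, where 19.8% of all tested genes were higher, 4 of 8 were (median 1.09), among them Bax, a cell death effector, at 24.4 against 3.97 CPM, with 187 CPM in other B0 cells. The crosslink and break repair list had 4 of 12 genes higher and 2 lower over other B0 cells and 2 of 12 higher over A0 (0.76). The shares of repair genes that were higher were near those of all tested genes. H2afx, the histone phosphorylated at breaks, was among the 2 over A0, at 91.8 against 45.1 CPM. Somatic list levels are given above for the same cells, and their part was not tested.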

How the data were processed

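Cells were isolated with TrypLE and libraries made with the 10x Genomics 3′ kit (V2). The authors counted UMIs with Cell Ranger (2.2.0, per the submitters' processing notes) on mm10, filtered cells and genes and normalised with Seurat. The deposited values are on a natural log scale: UMIs per 10000 in the cell, plus 1, logged. UMIs were recovered by dividing by the cell's lowest value, and 100% were whole within 0.001. The table held 18419 genes.

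UMIs were summed per set of cells and scaled to 1000000 (CPM), with exact Poisson intervals; shares of cells carry exact binomial (Clopper-Pearson) intervals. Log2 ratios have 1 CPM added, over genes with a UMI in at least 5% of cells of either set. Clusters came from Leiden (leidenalg 0.10.2; 20 principal components of 2000 variable genes, 15 neighbours, resolution 1). No doublet caller was run. Promoters were aligned locally with gaps (Biopython 1.88). Gene positions came from GENCODE M21, on the same build. On simulated counts, 194 of 200 changed genes came within 0.5 log2 units of the expected ratio (10483 genes). Both simulated sets took the profile and depths of the members. Differences between sets in depth, cell mix, free RNA or shared 3′ ends were not simulated.

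Named genes were Tcte3, Gm3476 and Speer4c, the 25 leading genes, the 10 largest rises and falls of each comparison, list genes, the 5 genes leading each cluster and the Speer family; others were named after their values were seen. The 25 are the genes in at least 5% of members with the largest smaller one of the log2 ratios over other B0 cells and over A0. Alternatives changed the added CPM, filter, centring, UMI limit, weighting, clustering and depth, or left out members rich in somatic transcripts. The members and lists were chosen with earlier results of these data known.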

Additional observations from a re-analysis of the deposited data

Results flagged for a closer look

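Some levels in deep, Insl3-low cells differed in opposite directions from A0 to A10 and from the B0 members to BA10, beyond counting error. Most A0 to A10 changes of the lists were small, and counting error is small for such large UMI sums. The difference between these changes was not tested. Each group was 1 library, so AOS, pool and library cannot be told apart. The members were 8.93% of B0 and the BA10 cells at the same limits 96.4% of their library. From the members to these BA10 cells the Leydig list changed by -1.96 on the log2 scale, the Sertoli list by -1.52, the macrophage list by -1.99 and the round spermatid list by -0.84, and their part in the changes given here was not tested. The differentiating spermatogonia list changed by 0.41 on the log2 scale from the B0 members to BA10 and by -0.07 from A0 to A10. In the members that list was mostly Dmrtb1, as given above, so its change is not read as one in spermatogonia. Among the clusters, Dmrtb1 was highest in cluster 3, at 1194 CPM, and lowest in cluster 9, at 55.6 CPM. For the piRNA pathway list the changes were 0.28 and -0.01, for the glutathione enzymes 0.16 and -0.03, and for the germ cell chromatin and RNA regulators 0.26 and -0.07. The opposite signs were found for the synaptonemal complex (-0.25 and 0.05) and for the dynein light and intermediate chains (-0.46 and 0.07). Tcte3, Gm3476 and Speer4c as a list changed by -2.40 and 0.25. Singly, Tcte3 changed by -2.43 and 0.25, Gm3476 by -2.14 and 0.32, and Speer4c by -2.50 and 0.16; they were chosen for their high level in the members.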

How the results depend on the processing

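No paired analysis was possible because each group was 1 library, and leaving out a replicate was likewise not possible. Of 67 recomputed main values, 50 stayed within 1.5 times the count, the counting interval or the spread over cells, and 17 did not. The number of genes lower than in other B0 cells, 3965, became 6058 without a detection filter and 1572 with a filter at 20% of cells. Over A0, the number of higher genes, 2107, became 620 with 10 CPM added, 832 with the 20% filter and 1370 after centring on the median, and the number of lower genes, 1153, became 735 with 10 CPM added. Weighting every cell alike changed the summed list ratios over other B0 cells from 3.01 to 3.54 (pachytene), 2.2 to 2.52 (late spermatocyte), 3.35 to 3.94 (round spermatid) and 3.21 to 3.76 (elongating spermatid), and over A0 from -0.08 to -0.04, 0.47 to 0.50, -1.50 to -1.46 and -5.12 to -5.23. Without the tenth of members richest in somatic list genes, the pachytene ratio over A0 was -0.05, and the elongating ratios were 3.09 and -5.24. The cause of these shifts was not tested. Of the 25 leading genes, which were chosen on these ratios, Ccl27b, Gm10406, Gm21663, Gm7347, LOC105245675 and Vstm2a went under the fold in both comparisons with 10 CPM added. In the round spermatid window, added after the data were seen, the Speer1 ratio over BA10 reversed from -0.47 to 0.47. Counting error alone is covered by the intervals, and differences between animals are not.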

Other observations

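Immediate early and heat shock genes were lower in the members than in other B0 cells in 9 of 9 tested cases (median log2 ratio -2.88) and higher than in A0 in 6 of 8 (2.33), where 35.7% of all tested genes were lower and 19.8% higher. The Leydig, Sertoli and macrophage lists had the same order, lower than in other B0 cells and higher than in A0, and the part of somatic RNA in these values was not tested. Fos measured 19.9 CPM in the members, 194 CPM in other B0 cells and 0.371 CPM in A0. Hspa1a had 1 UMI over all members.

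Glutathione enzymes split by gene. Gstm5, a germ cell glutathione transferase, measured 3655 CPM in the members, 768 CPM in other B0 cells and 3891 CPM in A0. Gpx4, the phospholipid peroxidase of sperm, measured 2756, 1643 and 3354 CPM. Gstp1 measured 10.0, 181 and 0.411 CPM and Gpx1 56.4, 835 and 2.45 CPM, in the order of the Leydig list. Among synaptonemal genes, Syce1, a central element protein, measured 799 CPM in the members, 101 CPM in other B0 cells and 575 CPM in A0, while Syce2 measured 125, 101 and 416 CPM.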
